A study of Mus musculus with 7 samples.

Results

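The 7 interferon-induced genes followed here were Ifitm1, Ifitm2, Ifitm3, Ifitm6, Isg15, Bst2 and Irf7, taken by symbol from the deposited tables of single cells. Of these, 6 were among the 11753 genes of the larger experiment, called experiment (ii) by the submitters, and Irf7 was analysed only in experiment (i). All cells came from mice with PyMT mammary tumours, a breast cancer model driven by a polyoma middle T transgene, which every group carried. In experiment (ii), cells were sorted by E-cadherin (Ecad, the adhesion protein of epithelial cells) from blood and from the tumour, and the 4 populations are called BEpos and BEneg (labelled Ecad-positive and Ecad-negative circulating tumour cells) and TEneg and TEpos (Ecad-negative and Ecad-positive solid tumour cells). Each of 4 libraries held 24 wells of BEneg, TEneg and TEpos, and library 1 also held 24 wells of BEpos. Experiment (i) consisted of 3 libraries of 96 wells labelled Ecad-positive bulk tumour cells. The labels give no age, strain or driver of the transgene and do not tie libraries to animals. Except in the fit with no filter on low counts, the p-values therefore reflect variation among these libraries, some or all of which may be technical.

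Interferons are secreted proteins that cells release on sensing viruses or damaged nucleic acid. They bind receptors that signal through JAK kinases and STAT factors, and the STAT complexes bind elements near the start of interferon-stimulated genes, the interferon-stimulated response element (ISRE) for type I and III interferons and the gamma-activated site (GAS) for interferon gamma. The Ifitm genes encode small membrane proteins that block the entry of enveloped viruses, and some of them, Ifitm3 in particular, are also made without interferon in many tissues. Isg15 encodes a ubiquitin-like protein that is attached to other proteins. Bst2 (tetherin) holds budding virus particles on the cell surface and in mice marks plasmacytoid dendritic cells. Irf7 is the transcription factor that drives the amplified production of type I interferon.

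In mouse genome build GRCm38 (mm10, the build of the deposited data), GENCODE M21 placed the 4 Ifitm members in 1 cluster on chromosome 7. Ifitm2 lay at chr7:140954837-140955987 (minus strand, where a readthrough gene model shares its exons), Ifitm1 at chr7:140967221-140969825 (plus strand), Ifitm3 at chr7:141009586-141010770 (minus strand) and Ifitm6 at chr7:141015699-141017924 (minus strand). With Ifitm5, which lies beside them, they spanned 68.97 kb, and Irf7 began 245 kb farther on at chr7:141262706-141266481 (minus strand). Isg15 was at chr4:156199424-156200818 and Bst2 at chr8:71534255-71537456, both on the minus strand. Because CEL-seq reads the 3' end of transcripts, the last 250 bases matter for telling the Ifitm genes apart. Between pairs of the 4 members, 55.6% to 63.6% of those bases were identical, and the longest run that a pair shared there was 26 bases (Ifitm2 with Ifitm3). No rule for reads shared between near-identical copies is given in the sources used here, so values of these paralogs are uncertain to that extent.

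The sequences around the ISRE cores near the starts of 4 members are shown because this element binds the factors of type I and III interferon. RefSeq windows of 300 bases (250 before to 50 after each gene's start, build GRCm38.p6) were found for all 7 members and searched on both strands for the ISRE core GAAANNGAAA. Isg15 held 3 matches, Ifitm3 2, Bst2 2 and Ifitm2 1, and neighbouring matches overlapped in Isg15 and Bst2. The windows of Ifitm1, Ifitm6 and Irf7 held 0, but RefSeq and GENCODE place the starts of Ifitm1 and Ifitm6 differently. Their RefSeq windows lie inside the GENCODE genes given above, so the sequence before those GENCODE starts was not searched. Of all 32851 RefSeq windows of that length, 3.44% held the core. The GAS motif TTCNNNGAA was in 8.30% of those windows and in those of Ifitm3, Ifitm6 and Bst2. A match is a string of letters, not a measured binding site. Capitals mark the ISRE core matches, and each sequence runs 5' to 3' on the strand of its gene. For Ifitm3, whose matches lie within the annotated first exon, 30 bases are shown.
Isg15, chr4:156200855-156200916, minus strand: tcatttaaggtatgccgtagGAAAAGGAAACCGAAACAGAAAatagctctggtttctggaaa
Ifitm3, chr7:141010716-141010745, minus strand: cagGAAAAGGAAActtctgaGAAACCGAAA
Bst2, chr8:71537567-71537622, minus strand: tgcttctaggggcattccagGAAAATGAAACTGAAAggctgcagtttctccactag
Ifitm2, chr7:140955988-140956027, minus strand: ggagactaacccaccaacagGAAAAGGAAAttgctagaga

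Levels are given as transcripts per 10000 transcripts of named genes, over wells with at least 500 transcripts, which left 220 of 312 wells. There were 20 BEpos wells, 60 BEneg wells, 69 TEneg wells and 71 TEpos wells, with medians of 3803, 819, 1603 and 2064 transcripts in that order of populations. The BEpos sum was 75125 transcripts. Library sums were 11172 to 25379 for BEneg, 17189 to 109892 for TEneg and 27416 to 71894 for TEpos. A single TEneg well of library 2 held 61227 transcripts, 55.7% of its sum. Library 3 of experiment (i), with 1 used well, and both populations sorted from blood went against the label of tumour cells. Transcripts of 8 leukocyte marker genes made up 1.02% of BEpos and 1.13% ± 0.256 of BEneg transcripts (SD, n = 4), against 0.0605% ± 0.0276 in TEneg and 0.0554% ± 0.0288 in TEpos. Transcripts of 8 epithelial marker genes made up 0.00934% in BEpos, 0.101% ± 0.0335 in BEneg, 0.291% ± 0.0867 in TEneg and 0.523% ± 0.122 in TEpos. BEpos and BEneg are therefore read here as wells sorted from blood whose leukocyte genes far exceeded those of the tumour wells. The part of cell type in the member levels was not tested, since markers of leukocytes moved with the place of origin. Fewer cells of a type and less RNA per cell cannot be told apart in a sum of wells.

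**Figure D1:**
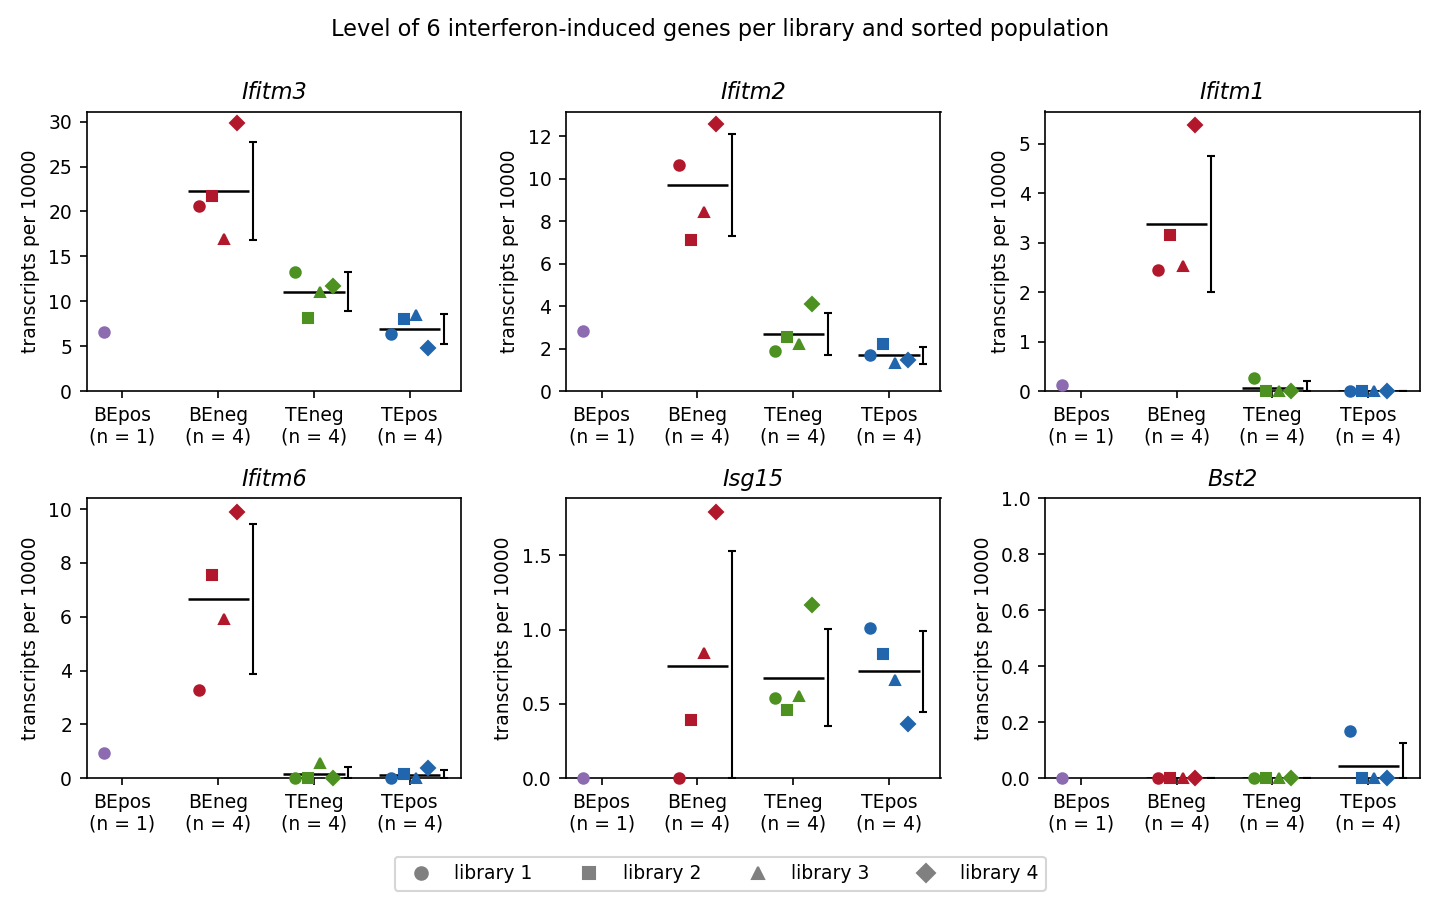
Transcripts per 10000 of 6 members (y axis, 1 panel per gene, each with its own scale) in each library (symbols) of BEpos, BEneg, TEneg and TEpos (x axis). Lines are means and bars SD over 4 libraries, and BEpos is 1 library. All 4 BEneg libraries lie above all TEneg and TEpos libraries for Ifitm3, Ifitm2, Ifitm1 and Ifitm6, and the groups overlap for Isg15. The share of all genes separated in this way was not counted, so the separation is not read as particular to the members.

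Ifitm3 and Ifitm2 were detected in every population and were higher in BEneg than in both tumour populations. Ifitm3, the family member best known for blocking influenza virus entry, had 20.6, 21.8, 16.9 and 29.9 transcripts per 10000 in BEneg libraries 1 to 4, against 13.3, 8.15, 11.1 and 11.7 in TEneg and 6.32, 8.02, 8.45 and 4.76 in TEpos. The lowest BEneg library was above the highest tumour library, whereas TEneg and TEpos overlapped. Ifitm2, a close paralog, had BEneg levels of 10.7, 7.13, 8.44 and 12.6 transcripts per 10000, against 1.88, 2.57, 2.20 and 4.09 in TEneg and 1.68, 2.24, 1.33 and 1.46 in TEpos. Its BEneg libraries again lay above every tumour library. How many of all genes were separated in this way was not counted, so it does not set these 2 genes apart.

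Of the 7 members, 6 could be tested and 2, Ifitm2 and Ifitm3, passed the filter on low counts. Ifitm3 reached the level asked by that filter in every population, whereas Ifitm2 could pass it only through BEneg. The calls of Ifitm2 in BEneg therefore add no support beyond its levels. Both genes were called in edgeR's quasi-likelihood test with Benjamini-Hochberg adjustment (adjusted p under 0.05). Against TEneg, the log2 fold change of Ifitm3 in BEneg was 1.22 (SE 0.24, adjusted p = 0.000142 in edgeR), and that of Ifitm2 was 2.07 (SE 0.36, adjusted p = 2.92e-05). In that comparison 23.9% of the 490 tested genes were called higher and 17.1% lower. Against TEpos, Ifitm3 was higher by 1.96 (SE 0.25, adjusted p = 1.64e-07 in edgeR) and Ifitm2 by 2.72 (SE 0.36, adjusted p = 4.48e-07), where 27.1% of genes were called higher and 21% lower. Each difference had the same direction in 4 of 4 libraries. The 2 comparisons share the BEneg sums. Calls of that kind were common, so these calls do not set the members apart from other genes. Scaling by total transcripts in place of TMM moved the median log2 fold change of all genes to -0.49 against TEneg and -0.48 against TEpos, from medians of -0.05 and -0.08, and under it 99 genes were called higher and 187 lower against TEneg, and 110 higher and 188 lower against TEpos. Under that scaling Ifitm3 kept a difference of 0.78 against TEneg.

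Between the tumour populations, Ifitm3 averaged 11.1 ± 2.16 transcripts per 10000 in TEneg and 6.89 ± 1.69 in TEpos (SD, n = 4 each), and Ifitm2 averaged 2.69 ± 0.977 and 1.68 ± 0.399 in the same populations. TEneg was higher than TEpos in 4 of 4 libraries for both genes, but neither passed the threshold. The log2 fold change was 0.74 for Ifitm3 (SE 0.25, adjusted p = 0.0717 in edgeR) and 0.65 for Ifitm2 (SE 0.40, adjusted p = 0.398), with 4.69% of tested genes called higher in TEneg and 1.63% lower. The large TEneg well of library 2 held 35.6% of that library's Ifitm3 transcripts and 55.7% of all its transcripts. Without that well, the difference in Ifitm3 was 0.97 (adjusted p = 0.00192 in edgeR) and passed the threshold. It also passed without library 2 (1.02, adjusted p = 0.0275) and with the observed molecular barcodes in place of the estimated counts (0.79, adjusted p = 0.0259). Over 12 alternatives its adjusted p ran from 0.00192 to 1.

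Ifitm1 and Ifitm6 were at low levels in every BEneg library and at or near 0 in both tumour populations. Ifitm6, a mouse family member described in myeloid cells, gave 8, 19, 7 and 11 transcripts in BEneg libraries 1 to 4, against 0, 0, 1 and 0 in TEneg and 0, 1, 0 and 1 in TEpos. Per 10000 transcripts that was 6.66 ± 2.79 in BEneg, 0.138 ± 0.275 in TEneg and 0.126 ± 0.173 in TEpos (SD, n = 4 each). Ifitm1, an antiviral paralog found mainly at the cell surface, gave 6, 8, 3 and 6 transcripts in BEneg, against 1, 0, 0 and 0 in TEneg and 0 in all 4 TEpos libraries. Its mean was 3.38 ± 1.37 per 10000 in BEneg. For both genes every BEneg library stood above every tumour library, a separation whose share over all genes was not counted.

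The few tumour transcripts set wide limits on these ratios. The large TEneg well held 61227 of the 182534 pooled TEneg transcripts and 0 of Ifitm1 or Ifitm6, which raises the ratios against TEneg. Over all used wells, Ifitm6 was 113 times as frequent in BEneg as in TEneg, with 45 transcripts against 1. The 95% counting interval was 19.2 to 4543. Against the 2 transcripts of TEpos the ratio was 58.3 (15.2 to 496). Ifitm1 was 57.5 times as frequent in BEneg as in TEneg, with 23 transcripts against 1 (9.34 to 2370). It was at least 19.9-fold higher in BEneg than in TEpos, taking a floor of 3 counts over the group for a count of 0. Neither gene passed the filter on low counts. In the fit with no filter, edgeR called both higher in BEneg in both comparisons, with adjusted p = 1.67e-12 and 1.69e-11 for Ifitm6 and 1.12e-06 and 4.78e-08 for Ifitm1. There 2.35% of 11431 genes were called higher against TEneg and 2.5% against TEpos. The p-values of that fit match normal tails of the fold change over its SE. A gene's own spread over the 4 libraries therefore had almost no weight in these calls. A fitted fold change against groups at or near 0 depends on the prior count and is not given. Ifitm6 passed the filter in the edgeR fit without library 1 and was called there (adjusted p = 6.72e-05 and 5.05e-05), but it could pass only through BEneg, so that call is no further support.

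**Figure D2:**
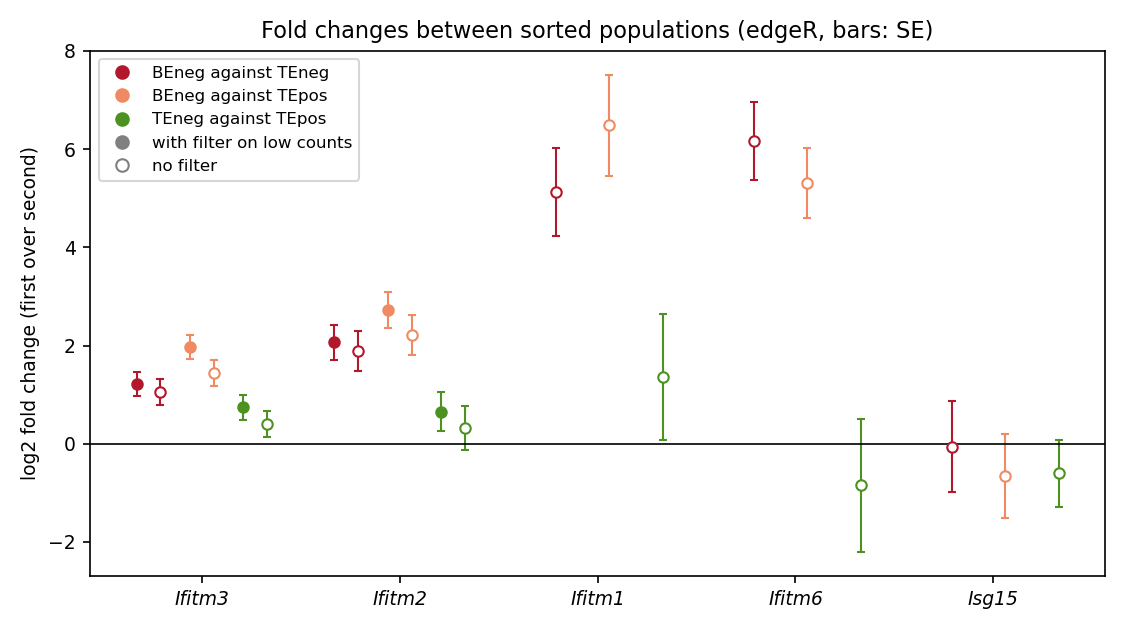
Log2 fold change (y axis) of 5 members in 3 comparisons of sorted populations, with SE as bars, for the fit with the filter on low counts (filled, Ifitm3 and Ifitm2) and the fit with no filter (open). The values of Ifitm1 and Ifitm6 against the tumour populations depend on the prior count, and those of Isg15 lie within 1 SE of 0 in all 3 comparisons.

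Isg15 levels in blood and tumour wells overlapped, and Bst2 was almost at 0 throughout. Isg15 gave 0, 1, 1 and 2 transcripts in BEneg libraries 1 to 4, against 2, 5, 1 and 2 in TEneg and 6, 6, 2 and 1 in TEpos. That was 0.758 ± 0.772 per 10000 in BEneg, 0.678 ± 0.328 in TEneg and 0.719 ± 0.275 in TEpos (SD, n = 4 each), and the 3 groups overlapped. Over all used wells the ratio of BEneg to TEneg was 1.0004 (95% counting interval 0.229 to 3.47) and that of BEneg to TEpos 0.691 (0.167 to 2.17). The large TEneg well supplied 61227 of the 182534 TEneg transcripts, but 1 of 10 Isg15 and 32 of 179 Ifitm3 transcripts. It thus raises the ratios of both genes against TEneg. The interval against TEneg includes a ratio as high as that of Ifitm3 over the same wells (2.22), so the counts do not exclude a rise of that size. The interval against TEpos ends below the ratio of Ifitm3 (3.07), but it rests on 4 BEneg transcripts and leaves out the spread over libraries. In wells of at least 1000 transcripts Isg15 averaged 0.132 ± 0.265 per 10000 in BEneg, 0.881 ± 0.560 in TEneg and 0.753 ± 0.250 in TEpos. The lower BEneg value was within the SD of all used wells, where Isg15 had 4 transcripts. In the edgeR fit with no filter its adjusted p was 1 against TEneg and 0.972 against TEpos. Bst2 gave 1 transcript in all 220 wells, in a TEpos well of library 1, and 0 in BEpos, BEneg and TEneg. Transcripts of Siglech and Tcf4, which with Bst2 mark plasmacytoid dendritic cells, were at 0 in BEpos, BEneg and TEpos.

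Shares of wells with a transcript were compared after depth was made equal. Before thinning, Ifitm3 was found in 80.8% ± 11.3 of BEneg wells, 73.5% ± 11.03 of TEneg wells and 65.4% ± 17.5 of TEpos wells (SD over 4 libraries), although tumour wells were deeper. After each well was thinned to 500 transcripts, Ifitm3 was found in 63.1% ± 10.4 of BEneg wells, 40.1% ± 1.42 of TEneg wells and 28.9% ± 7.68 of TEpos wells. Ifitm2 was found in 40.9% ± 9.73 of thinned BEneg wells, 15.02% ± 3.22 of TEneg wells and 6.76% ± 1.95 of TEpos wells. Thinned shares of Ifitm6 were 23.6% ± 7.10, 0.670% ± 1.34 and 0.711% ± 0.947 in BEneg, TEneg and TEpos, and those of Ifitm1 were 22.8% ± 6.47, 0.316% ± 0.632 and 0% in the same order. Isg15 was found in 4.80% ± 4.91, 3.67% ± 1.28 and 3.14% ± 1.66 of thinned wells of these populations. Shares also moved with the wells used. In wells of at least 1000 transcripts, thinned in the same way, Ifitm3 was found in 54.9% ± 15.7 of BEneg wells, 49.1% ± 8.38 of TEneg wells and 24.3% ± 6.15 of TEpos wells, so that BEneg and TEneg were within their spread. There Ifitm2 was found in 25.9% ± 6.19, 14.3% ± 6.50 and 6.67% ± 2.97 of wells of these populations. Shares of Ifitm6 were 18.7% ± 8.67, 1.56% ± 3.13 and 0.942% ± 1.31, and those of Ifitm1 were 6.31% ± 5.96, 0.353% ± 0.706 and 0%. In wells of at least 500 transcripts, a single BEneg well usually held several of the 4 Ifitm members. At least 1 was found in all but 3 of 60 BEneg wells, against all but 11 of 69 TEneg wells and all but 19 of 71 TEpos wells. At full depth 3 or 4 members were found in 21 BEneg wells, 1 TEneg well and 1 TEpos well. Of the 20 BEpos wells, which were deeper (median 3803 transcripts), 3 held 3 members, 1 held 4 and 6 held 0.

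**Figure D3:**
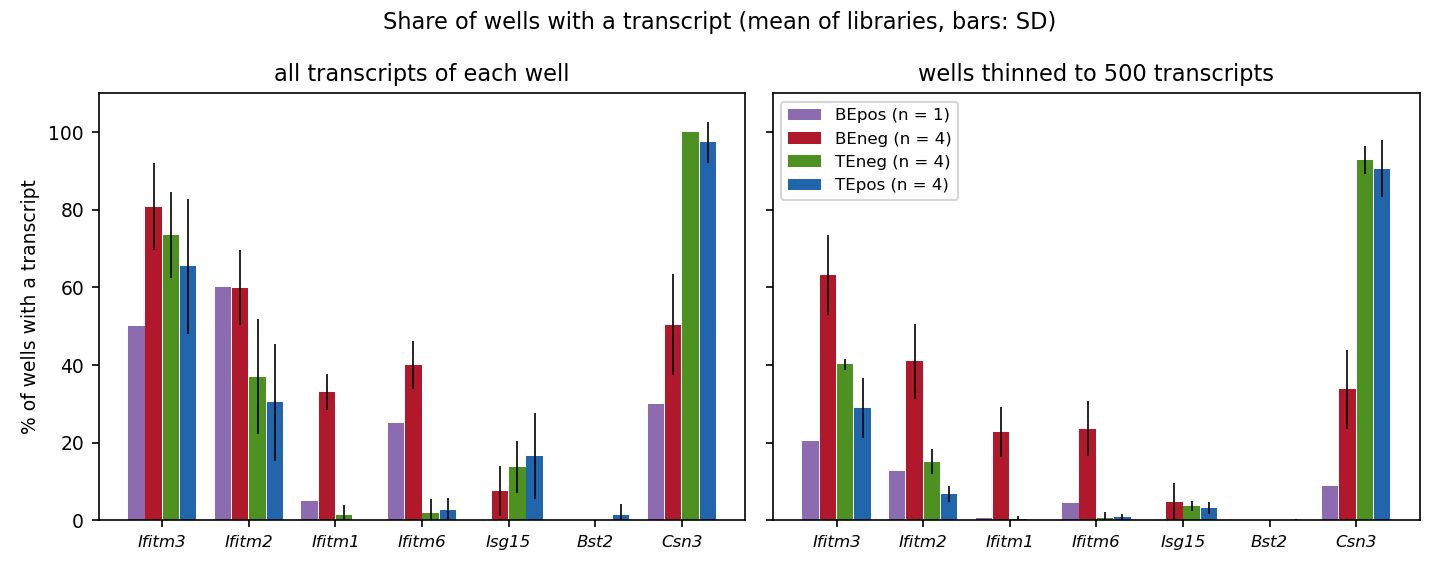
Share of wells with a transcript (y axis, percent) of 6 members and of the milk gene Csn3, with all transcripts (left) and after thinning each well to 500 transcripts (right), in BEpos (1 library) and in BEneg, TEneg and TEpos (means and SD of 4 libraries). After thinning, Ifitm1 and Ifitm6 are found in 22.8% and 23.6% of BEneg wells and in at most 0.711% of tumour wells.

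A neutrophil gene was also detected in tumour wells and a milk gene in blood wells. After thinning, the neutrophil gene S100a9 was detected in 88.3% of wells in BEneg, 50.5% in TEneg and 45.9% in TEpos, and the milk gene Csn3 in 33.7%, 92.8% and 90.6% of wells of the same populations. Over TEneg libraries the S100a9 share ran from 23.3% to 84.4%. The source of these transcripts was not tested. Levels of the members are also given relative to S100a9. Per 100 S100a9 transcripts, Ifitm6 had 1.62 transcripts in BEneg, 0.650 in TEneg and 0.938 in TEpos. Tyrobp, a myeloid adaptor gene, had 11.4, 14.3 and 11.7 per 100 in the same populations. Ifitm3 had 5.68 transcripts per 100 S100a9 transcripts in BEneg, against 116 in TEneg and 62.7 in TEpos, and Ifitm2 had 2.44, against 30.01 and 15.98. The ratio of Ifitm3 and Ifitm2 to S100a9 was thus far higher in tumour wells. That of Ifitm6 rested on 1 transcript in TEneg and 2 in TEpos, too few to compare. Per 100 S100a9 transcripts it ran from 0.770 to 3.15 over BEneg libraries, 0 to 6.66 over TEneg and 0 to 1.62 over TEpos. Of the 3 tumour wells with an Ifitm6 transcript, 2 also held leukocyte and S100a8 or S100a9 transcripts and 1, a TEpos well of library 4, held none. The TEneg well with the Ifitm1 transcript held 6 leukocyte transcripts and 26 of Csn3 and Wfdc18.

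Tumour wells without any transcript of 5 myeloid genes (Tyrobp, Fcer1g, Lyz2, Srgn and Cd52) still held Ifitm3. In TEneg, Ifitm3 averaged 11.1 ± 2.11 per 10000 in the 43 wells with such a transcript and 10.5 ± 5.57 in the 26 wells without (SD, n = 4 libraries). In TEpos it averaged 6.83 ± 2.50 in 39 wells with and 5.87 ± 2.77 in 32 wells without. Ifitm2 averaged 2.48 ± 1.38 in TEneg wells with and 3.29 ± 1.28 in those without, and 1.89 ± 0.643 in TEpos wells with and 1.06 ± 0.838 in those without. For Ifitm3, wells with a myeloid transcript were higher in 2 of 4 libraries and lower in the other 2 in both populations. In TEneg library 2, the large well of 61227 transcripts was among the wells with a myeloid transcript, which held 82570 transcripts. Median depth in TEpos was 2491 transcripts in wells with and 1587 in wells without, so class moved with depth there. These are descriptions, since both classes come from the same libraries.

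Within BEneg, Ifitm6 and Ifitm3 were higher in wells with a monocyte transcript, and Ifitm1 was higher in wells without one. Wells were split by at least 1 transcript of Ccr2, Ly6c2, Csf1r, F13a1 or Ms4a6c, monocyte genes of which 4 were measured, into 34 wells with (median 1093 transcripts) and 26 without (median 729). Ifitm6 had 3.61, 9.84, 15.1 and 12.7 transcripts per 10000 in wells with a monocyte transcript in libraries 1 to 4, against 1.96, 3.36, 0 and 0 in wells without. Ifitm3 had 21.4, 26.3, 28.1 and 34.9 in wells with, against 17.7, 13.5, 9.72 and 12.1 in wells without. Both were higher in wells with a monocyte transcript in 4 of 4 libraries. Ifitm1 went the other way in 4 of 4 libraries, with 0.515, 3.05, 2.15 and 1.15 in wells with a monocyte transcript and 9.82, 3.36, 2.77 and 20.2 in wells without. In libraries 2 and 3 that difference was small and rested on 1 to 5 transcripts a class.

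Ifitm2 showed no such split. It averaged 9.99 ± 2.78 per 10000 in BEneg wells with a monocyte transcript and 9.97 ± 2.47 in wells without (SD, n = 4 libraries). The 4 Isg15 transcripts of BEneg all fell in wells without a monocyte transcript. Thinned to 500 transcripts, Ifitm6 was found in 36.6% ± 14.1 of wells with a monocyte transcript and 7.14% ± 9.61 of wells without, and Ifitm1 in 12.03% ± 8.01 and 43.3% ± 31.2 of the same classes. Thinned shares of Ifitm3 overlapped, at 67.7% ± 17.03 and 56.8% ± 9.96. Of 60 BEneg wells, 5 held both Ifitm1 and Ifitm6, 15 held Ifitm1 alone, 19 held Ifitm6 alone and 21 held neither. Ifitm1 was in 20 wells in all and Ifitm6 in 24. The number of shared wells expected with no link between the genes was not computed, so the 5 are a count alone. Of the 19 with Ifitm6 alone, 17 held a monocyte transcript at full depth, against 3 of the 15 with Ifitm1 alone and 34 of all 60 BEneg wells. Transcripts of 9 neutrophil markers made up 6.27% ± 1.62 of wells with a monocyte transcript and 11.8% ± 5.88 of wells without, so neutrophil genes were present in both classes. Depth moved with Ifitm1 as well. In BEneg wells of at least 1000 transcripts, Ifitm1 averaged 0.949 ± 0.799 per 10000, Ifitm2 6.27 ± 2.15, Ifitm6 4.52 ± 2.73 and Ifitm3 24.1 ± 11.99. The classes were set at full depth and only the members were thinned, so the part of depth in the split was not tested. Wells were split by measured transcripts, so these values describe the wells and carry no test.

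**Figure D4:**
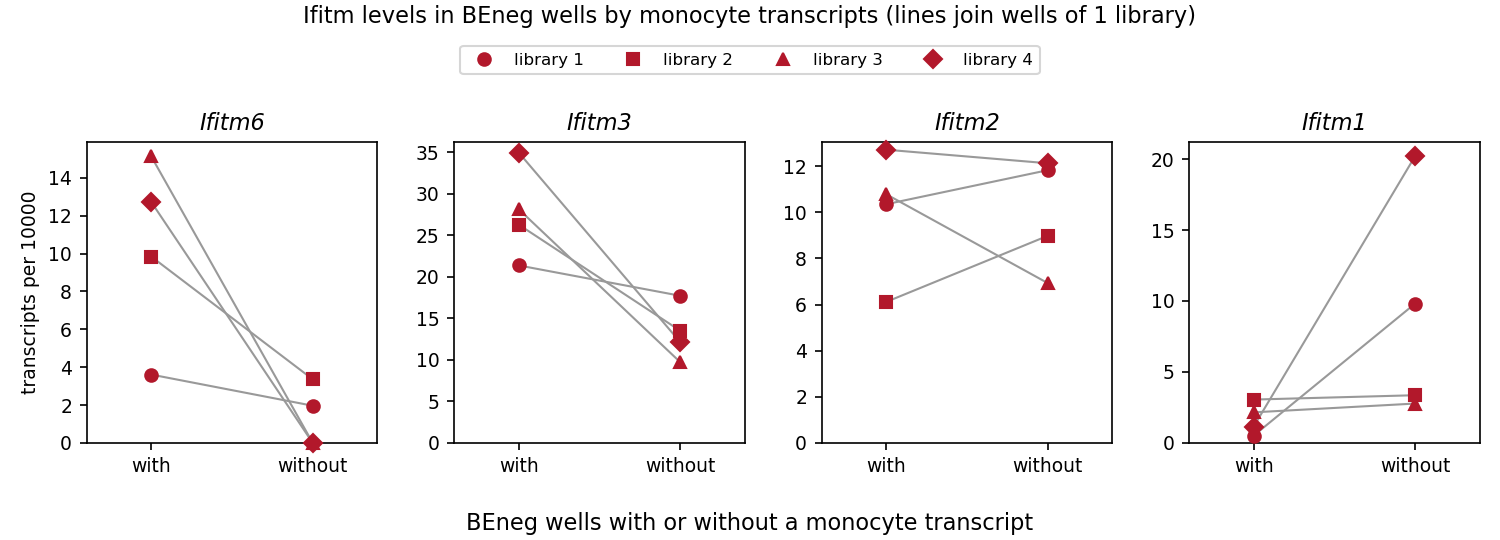
Transcripts per 10000 (y axis, own scale per gene) of the 4 Ifitm members in BEneg wells with and without a monocyte transcript (x axis), with 1 point per library and lines joining the wells of a library. Ifitm6 and Ifitm3 are higher with a monocyte transcript in 4 of 4 libraries, Ifitm1 is lower in 4 of 4, and Ifitm2 is higher in 2 and lower in 2.

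BEpos wells, which were in library 1 alone, had lower levels of the Ifitm members than BEneg wells of that library. Values here are sums with exact 95% Poisson intervals, which cover counting error only, and with 1 library there is no test. Ifitm3 had 6.66 transcripts per 10000 in BEpos (4.94 to 8.77, 50 transcripts), against 20.8 in BEneg (15.5 to 27.3, 51 transcripts). Ifitm2 had 2.80 in BEpos (1.73 to 4.27), against 10.6 in BEneg (6.92 to 15.5). Ifitm1 had 0.133 in BEpos (0.00337 to 0.742, 1 transcript), against 2.44 in BEneg (0.897 to 5.32, 6 transcripts). The intervals of these 3 genes did not overlap. Those of Ifitm6 did, at 0.932 in BEpos (0.375 to 1.92, 7 transcripts) and 3.26 in BEneg (1.41 to 6.42, 8 transcripts). Isg15 and Bst2 were at 0 in both, where the floor of 3 counts is 0.399 per 10000 in BEpos and 1.22 in BEneg.

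The make-up of both blood populations differed along with these levels. T and NK cell genes made up 0.210% of BEpos transcripts and 0.0100% ± 0.0116 of BEneg transcripts, and B cell genes 0.201% and 0.00612% ± 0.0122 in the same order. Neutrophil genes made up 1.996% of BEpos transcripts and 7.67% ± 2.76 of BEneg transcripts. Per 100 S100a9 transcripts, with BEneg summed over its 4 libraries, Ifitm3 had 6.62 in BEpos and 5.68 in BEneg, and Ifitm2 had 2.80 and 2.44. On that scale Ifitm6 had 0.934 in BEpos and 1.62 in BEneg, and Ifitm1 had 0.133 and 0.822, from 7 and 1 transcripts in BEpos. Single BEneg libraries ran from 0.770 to 3.15 for Ifitm6, which includes the BEpos value, and from 0.577 to 1.71 for Ifitm1. In library 1, BEneg held 8 Ifitm6 and 1042 S100a9 transcripts, against 7 and 752 in BEpos. There Ifitm6 per S100a9 transcript was lower in BEneg than in BEpos. All 5 BEpos wells with an Ifitm6 transcript held 37 to 55 leukocyte transcripts. After thinning to 500 transcripts, Ifitm3 was found in 20.5% of BEpos wells and 63.1% ± 10.4 of BEneg wells, and Ifitm2 in 12.8% and 40.9% ± 9.73. Sort gate, cell make-up and depth cannot be told apart in this comparison.

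Experiment (i), a separate set of cells labelled Ecad-positive bulk tumour cells, gave the only values of Irf7. Its tables were made separately and hold no comparison group, so levels are given per library with exact 95% Poisson intervals for counting error. Library 1 had 95 used wells and 438102 transcripts, and library 2 had 65 used wells and 69976 transcripts. Library 2 also held myeloid transcripts, with Tyrobp at 12.1 per 10000 in 19 wells, against 0.184 in library 1. Csn3 was at 39.4 in library 2 and 93.8 in library 1. In library 2, Ifitm3 had 8.78 in 26 wells with a myeloid transcript and 4.93 in 39 wells without. In library 1 it had 7.02 in 15 wells with and 4.61 in 80 without. The part of cell type was not tested. Irf7 had 143 transcripts in 55 of 95 wells of library 1, or 3.27 per 10000 (2.75 to 3.85), and 10 transcripts in 5 of 65 wells of library 2, or 1.44 per 10000 (0.685 to 2.63). The 5 wells richest in Irf7 held 26.97% of its transcripts in library 1. Ifitm3 had 4.99 per 10000 in library 1 (4.36 to 5.71) and 6.32 in library 2 (4.57 to 8.44), beside 6.89 ± 1.69 in TEpos of experiment (ii), a table made separately. Ifitm2 had 0.985 (0.710 to 1.32) and 0.859 (0.315 to 1.87) per 10000 in libraries 1 and 2.

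Isg15 had 1.13 transcripts per 10000 (0.827 to 1.48) in library 1 and 1.86 (0.989 to 3.18) in library 2 of experiment (i). It was concentrated in few wells, with 55.3% of its 49 transcripts in library 1 in 5 wells, whereas the 5 richest wells held 24.8% of the 219 Ifitm3 transcripts. Ifitm1 gave 1 transcript in each library. Bst2 gave 3 transcripts in library 1, and Ifitm6 gave 0 in the used wells of library 2, where the floor of 3 counts is 0.429 per 10000 and the upper Poisson bound 0.527. Bst2 in library 2 and Ifitm6 in library 1 were not analysed here. In library 1, the 55 wells with an Irf7 transcript had 5.97 Ifitm3 and 1.34 Isg15 transcripts per 10000, against 2.85 and 0.656 in the 40 wells without. Their median depths were 3475 and 3016 transcripts. In library 2 the 5 wells with Irf7 had 4.97 Ifitm3 and 7.45 Isg15 transcripts per 10000, against 6.50 and 1.13 in the 60 wells without, and rested on 4 and 6 transcripts. There the median depths were 1548 transcripts in wells with Irf7 and 860.3 in wells without. Isg15 per 10000 was higher in wells with Irf7 in both libraries, but in library 1 the share of wells with an Isg15 transcript was nearly equal, at 25.5% of wells with Irf7 and 20% of wells without. The order of Ifitm3 differed between the libraries. Library 3 had 1 used well, in which the 5 members measured were at 0.

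**Figure D5:**
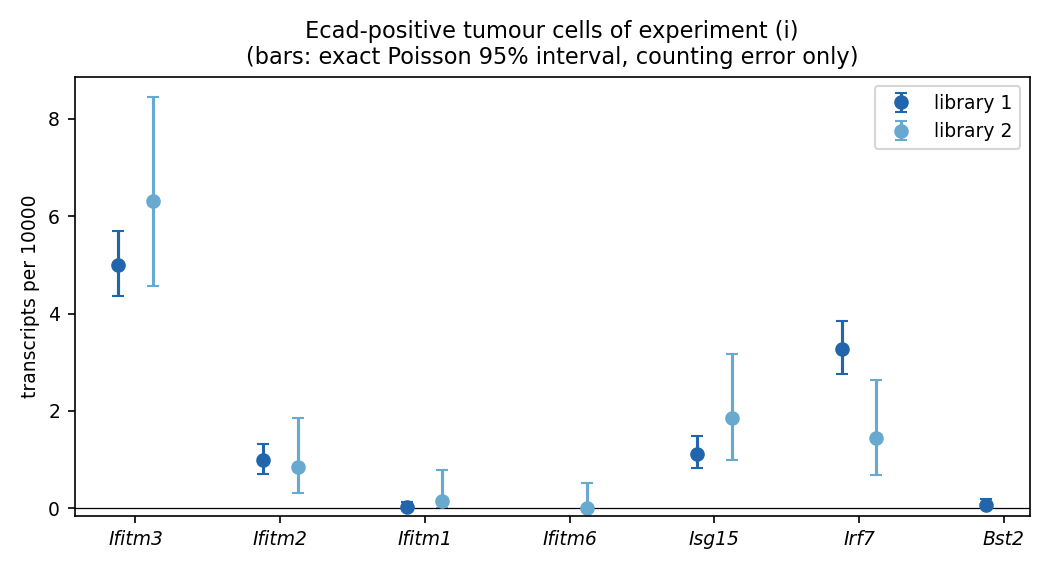
Transcripts per 10000 (y axis) of the 7 members (x axis) in libraries 1 and 2 of experiment (i), with exact 95% Poisson intervals for counting error. Ifitm3 is at 4.99 and 6.32, Irf7 is higher in library 1, and Ifitm1, Ifitm6 and Bst2 are near 0. A member with no point in a library was not analysed there.

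The rest of the interferon pathway was measured thinly. Of 113 listed ligands, receptors, signalling genes, effectors and antigen-processing genes, 82 were measured in experiment (ii) and 2 passed the filter on low counts. Both were called higher in BEneg in both comparisons with tumour cells, 0 were called lower, and neither was called between TEneg and TEpos. Of all 490 tested genes, 23.9% and 27.1% were called higher in the same comparisons and 17.1% and 21% lower. B2m, the light chain of MHC class I, had 41.5 ± 6.70 transcripts per 10000 in BEneg, against 24.3 ± 8.94 in TEneg and 24.5 ± 4.68 in TEpos (SD, n = 4 each). Its log2 fold change was 1.05 against TEneg (SE 0.17, adjusted p = 1.05e-05 in edgeR) and 1.09 against TEpos (SE 0.16, adjusted p = 3.03e-06). Slfn4, a Schlafen gene of mouse myeloid cells, had 7.43 ± 3.66 in BEneg, against 0.0673 ± 0.135 in TEneg and 0.279 ± 0.209 in TEpos. Its log2 fold change was 6.49 (SE 0.86, adjusted p = 5.51e-07 in edgeR) and 4.67 (SE 0.66, adjusted p = 1.11e-06), and with 1 transcript in TEneg the first rests on the prior count. With 51 transcripts in BEneg against 1 in TEneg and 6 in TEpos, Slfn4 passed the filter only through BEneg, so its call supports nothing beyond the levels themselves. B2m in BEpos was 52.8 per 10000 and Slfn4 was 1.34.

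With no filter on low counts, edgeR called 13 of 81 tested pathway genes higher in BEneg than in TEneg and 10 higher than in TEpos, where 2.35% and 2.5% of all 11431 genes were called higher. It called 0 of them lower, where 1.68% of all genes were called lower against TEneg and 2.58% against TEpos. At an unadjusted p under 0.05, 16 and 24 pathway genes passed in either direction. The share of all genes passing at that level was not counted, so these numbers are counts alone. The pathway genes were not matched to all genes on level. As for Ifitm1 and Ifitm6, the p-values of this fit gave almost no weight to a gene's own spread over libraries. Of the 53 effectors, 11 were called higher against TEneg and 9 against TEpos, and those called in both were Ifi204, Ifi27l2a, Ifitm7, Oas3, Oasl2, Samhd1, Slfn1, Slfn4 and Trim30a. Ifitm7, an intronless family member on chromosome 16, had 4.25 ± 2.74 transcripts per 10000 in BEneg, against 0.486 ± 0.143 in TEneg and 0.0420 ± 0.0840 in TEpos. Samhd1, which depletes the nucleotides that viruses need, had 3.21 ± 2.23 in BEneg, against 0.228 ± 0.242 in TEneg and 0.217 ± 0.257 in TEpos. Oasl2, of the oligoadenylate synthetase family, had 3.99 ± 1.59 in BEneg, 1.11 ± 0.396 in TEneg and 0.818 ± 0.242 in TEpos. Ifi30, a lysosomal thiol reductase of antigen-presenting cells, and Slfn2 were called against TEneg alone in that fit, as was B2m. Whether the contrasts differ was not tested.

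Slfn5 and Rtp4 were the effectors of highest summed level and were not called. Slfn5 had 3.22 ± 0.569 transcripts per 10000 in BEneg, 2.81 ± 0.556 in TEneg and 2.52 ± 1.22 in TEpos, and Rtp4 had 3.52 ± 2.62, 2.76 ± 0.434 and 2.99 ± 0.725 in the same order. Among the receptors, Ifngr1, the ligand-binding chain for interferon gamma, was called higher in both comparisons with no filter, with 4.21 ± 2.76 in BEneg, against 0.836 ± 0.253 in TEneg and 0.405 ± 0.0750 in TEpos. The other receptor chains of highest level, Ifnar1, Ifnar2 and Ifngr2, were not called, at 2.03 ± 1.66, 1.80 ± 1.13 and 1.14 ± 0.361 in BEneg. Of 12 signalling genes tested with no filter, edgeR called 0, with 1 at an unadjusted p under 0.05 against TEneg and 2 against TEpos. Here too no share of all genes was counted at the unadjusted threshold. Jak1, Socs3, Irf2 and Ddx58 had the most transcripts summed over all populations, with 3.49 ± 1.53, 3.64 ± 0.855, 1.81 ± 1.23 and 0.5001 ± 0.597 transcripts per 10000 in BEneg. Of the antigen-processing genes, Psme1, Psmb8 and Psmb10 had 3.03 ± 0.625, 3.04 ± 2.26 and 1.45 ± 0.372 in BEneg and were not called. Among the ligands, 1 Ifnb1 transcript in a TEneg well was the only one.

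Over the 12 sums of BEneg, TEneg and TEpos, the tested genes whose levels were most like those of Ifitm2 on the log2(transcripts per 10000 + 1) scale were Sfpi1 (Pearson r = 0.967), Gpx1 (0.955) and Mpeg1 (0.954), among 489 genes compared. Those most like Ifitm3 were Actb (0.959), Gnai2 (0.951) and Msn (0.945). Sfpi1 encodes the myeloid transcription factor PU.1 and Mpeg1 a macrophage perforin, whereas Actb, Gnai2 and Msn encode widely expressed proteins of the cytoskeleton and of signalling. The sums share libraries and differ in depth and in place of origin, so these values are descriptions.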

How the data were processed

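CEL-seq, which tags each cell and each molecule and reads the 3' ends of transcripts, was run on plates sorted at 1 cell a well, and doublets were not called. The authors deposited estimated counts: for each gene in each well, the number of molecules estimated from k observed molecular barcodes as 256 ln(256/(256 - k)), unscaled across wells. The formula was read from the values. The submitters' processing notes name BWA 0.6.2-r126 and mm10. The step that assigned reads to genes was not given in the sources used here.

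Transcripts of wells with at least 500 were summed per library and population, rounded to whole numbers, and the sums of BEneg, TEneg and TEpos were fitted together in edgeR 4.0.16 (quasi-likelihood test, TMM, filterByExpr, library as a block, R 4.3.3), a procedure tested on simulated data. A gene was called where its p, adjusted by Benjamini-Hochberg over the 490 genes tested, was under 0.05. The library is the replicate (n = 4). Pairing by library comes from the deposited barcode table, and residuals of paired sums correlated at 0.0608 to 0.351. Thinning drew 500 transcripts from each well 200 times. Intervals are exact Poisson intervals at the 95% level and cover counting error only. Alternatives were DESeq2 1.42.0, limma 3.58.1 on log2(mean + 1), other scaling and filters, no replicate block, and leaving out each library.

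The members and gene lists were chosen with earlier results of these data known. Named pathway genes were those called in any comparison and up to 4 of highest summed level per role. BEpos, in 1 library, was not tested.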

Additional observations from a re-analysis of the deposited data

Results flagged for a closer look

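Of 18 groups of 4 libraries looked at, 4 held a library far from the others. These were Ifitm1 in TEneg library 1 (0.269 transcripts per 10000), Ifitm6 in TEneg library 3 (0.550), Bst2 in TEpos library 1 (0.168) and Isg15 in TEneg library 4 (1.17). The first 3 are a single transcript in a group that is otherwise at 0, where any transcript sets a library apart, so the chance rate of about 1 in 20 groups does not apply to them. The Isg15 value is 2 transcripts.

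Wells and libraries outside the comparisons also held member transcripts. Library 3 of experiment (i), labelled Ecad-positive tumour cells, had 1 well of at least 500 transcripts. Over all its 96 wells, Ifitm1 had 42 transcripts in 23 wells, or 30.04 per 10000, and Ifitm3 had 10.003 per 10000. In the same wells S100a9 had 204 and Csn3 5.01 transcripts per 10000, whereas in all wells of library 1 S100a9 had 0.320 and Csn3 93.8. The wells of library 3 thus went against their label. In the 36 BEneg wells under 500 transcripts, Ifitm1 had 4.86, Ifitm2 21.1, Ifitm3 13.8 and Ifitm6 3.24 transcripts per 10000. In the 27 TEneg wells under 500 transcripts, Ifitm2 had 7.46 and Ifitm3 5.99, from 5 and 4 transcripts. Ifitm1 and Ifitm6 were at 0 in those TEneg wells, where 3 counts are 4.47 per 10000.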

How the results depend on the processing

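The higher levels of Ifitm2 and Ifitm3 in BEneg were called by all 12 alternatives that tested them, against TEneg and against TEpos. In the fit given above, Ifitm2 could pass the filter on low counts only through BEneg, so its calls add no support beyond its levels. Log2 fold changes of Ifitm3 against TEneg ran from 0.78 to 1.35 and those of Ifitm2 from 1.498 to 2.27. The number of members called in BEneg against TEneg and against TEpos was 2 in each, and 4 in each with no filter on low counts. Genes called numbered 201 against TEneg, but 461 with no filter and 111 in wells of at least 1000 transcripts. Against TEpos they numbered 236, but 581 with no filter and 125 in wells of at least 1000 transcripts. Between TEneg and TEpos, 31 genes were called, and 20 with no replicate block, 99 with no filter, 17 in wells of at least 1000 transcripts, 19 with means of wells in limma, 55 without the large TEneg well and 19 to 42 with each library left out. Members called there numbered 0, but 1 with observed molecular barcodes, 1 without the large TEneg well and 0 to 1 with each library left out. In each case the member was Ifitm3, and the cause was not tested. The replicate block changed no call of a member. Low counts limit Ifitm1, Ifitm6, Isg15 and Bst2, with at most 45 transcripts in a population.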
